A study of Homo sapiens with 15 samples.

Results

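CCR1, CCR2, GPR183 and GPR84 encode G protein-coupled receptors that steer leukocytes along gradients of chemical attractants. The 4 genes were taken by name from the platform annotation of the array, out of 14812 genes analysed, and each of the 4 was represented by 1 feature. They had been picked because their signals were already known to differ between the groups of this experiment. Their own values are therefore given as a description, without p-values, and calls among them appear only as counts from which nothing is read. The experiment used MV4-11, a long-established line from a human acute myeloid leukemia, with a rearranged KMT2A gene and a constitutively active FLT3 kinase. The cells were grown in serum-containing medium and exposed for 24 h to OTX015 at 300 nM, DW71177 at 300 nM, DW71374 at 300 nM, RVX208 at 5 uM or the vehicle DMSO, with 3 arrays for each of these 5 groups. BET proteins read acetylated histones through a pair of bromodomains. OTX015, or birabresib, occupies either bromodomain, RVX208, or apabetalone, prefers the second, and DW71177 and DW71374 are known here by code name. RVX208 was used at another dose than the other compounds, so its values stand beside theirs without a comparison between compounds.

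Chemokine receptors are membrane proteins that respond to small secreted chemokines and signal mainly through inhibitory G proteins to the actin cytoskeleton and to integrins. CCR2 answers to CCL2 and CCL7 and is known for bringing inflammatory monocytes out of the bone marrow. CCR1 answers to CCL3, CCL5, CCL7 and CCL23 and is found on monocytes and neutrophils. GPR183, also called EBI2, is a receptor for hydroxylated cholesterols and positions B cells, dendritic cells and other leukocytes in lymphoid tissue. GPR84 responds to medium-chain fatty acids and is known as a gene that inflammatory stimuli raise in macrophages and neutrophils.

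All values are deposited signals, taken to be on the log2 scale, in which a difference of 1 is a doubling. They were also taken as normalized between arrays, so a shift shared by all genes would not be seen. Array medians lay between 3.72 and 3.79, and the correlation across genes between replicates was 0.992 to 0.995. Arrays give no counting depth, and their number limits the precision. No background level came with the table, so a fold is at best a lower bound where a group mean is under 5, a limit set with the values in view. Signals of different genes come from different probes, so levels are compared within a gene and only differences are set side by side between genes. The labels describe wells treated in triplicate without saying whether they came from separate cultures, so p-values reflect array-to-array spread, part of which may be technical. In such a bulk measurement fewer cells carrying a transcript and less of it per cell cannot be told apart. The compounds were checked on MYC, which codes for a growth-promoting transcription factor, and on HEXIM1, an inhibitor of the elongation kinase P-TEFb, both known to respond to BET inhibitors. With OTX015 MYC fell by 1.42 and HEXIM1 rose by 1.65, with DW71177 MYC fell by 1.16 and HEXIM1 rose by 1.11, and with RVX208 MYC fell by 0.32 and HEXIM1 rose by 0.74. With DW71374 neither passed the test in limma.

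The start regions of CCR1, CCR2 and GPR183, the receptor genes whose signals were lower together, are shown because BET proteins act at regulatory DNA. Each is a window of 300 bases, from 250 before to 50 after the annotated start, from RefSeq on GRCh38.p14. The windows are chr3:46208264-46208563 on the minus strand for CCR1, chr3:46353861-46354160 on the plus strand for CCR2 and chr13:99307350-99307649 on the minus strand for GPR183. Of the 4 genes 3 had such a window, GPR84 being the other. Capitals mark matches on either strand to 6 motifs. ETS factors were searched as GGAAGT. For AP-1 the letters were TGANTCA. An E-box was CACGTG. The C/EBP motif was written TTGCNNAA. A TATA box was TATAAA, and the motif of interferon regulatory factors was the other one.
CCR1: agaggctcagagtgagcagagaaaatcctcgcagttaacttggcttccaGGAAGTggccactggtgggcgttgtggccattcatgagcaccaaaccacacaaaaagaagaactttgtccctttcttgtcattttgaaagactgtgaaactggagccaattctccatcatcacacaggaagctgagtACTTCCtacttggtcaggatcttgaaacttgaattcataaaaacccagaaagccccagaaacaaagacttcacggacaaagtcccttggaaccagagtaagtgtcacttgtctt
CCR2: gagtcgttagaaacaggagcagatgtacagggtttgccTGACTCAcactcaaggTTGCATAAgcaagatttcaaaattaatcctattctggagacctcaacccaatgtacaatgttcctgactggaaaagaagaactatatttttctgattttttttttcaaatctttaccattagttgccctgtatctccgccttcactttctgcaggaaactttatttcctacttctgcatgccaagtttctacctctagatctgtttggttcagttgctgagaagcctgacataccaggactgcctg
GPR183: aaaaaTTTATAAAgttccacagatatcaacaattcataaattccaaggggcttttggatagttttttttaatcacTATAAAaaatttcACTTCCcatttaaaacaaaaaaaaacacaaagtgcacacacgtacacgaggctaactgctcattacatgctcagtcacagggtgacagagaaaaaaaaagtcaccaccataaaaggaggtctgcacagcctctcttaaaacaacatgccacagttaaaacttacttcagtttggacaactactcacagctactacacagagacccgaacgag

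The 3 windows shared no single motif of this set. CCR1 held 2 ETS matches and GPR183 held 1. ETS matches occur in 22.8% of all 35116 windows of this length. CCR2 held 1 AP-1 match, found in 7.71% of windows, and 1 C/EBP match, found in 10.5%. GPR183 had 3 TATA box matches, of which a pair overlapped on opposite strands, against 11.5% of windows with at least 1. E-box matches, present in 7.26% of windows, and interferon regulatory factor matches, present in 3.57%, were not in these windows. The GC content was 45.3% for CCR1, 40.7% for CCR2 and 36.7% for GPR183. A match describes letters only.

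CCR2, the receptor for CCL2, had the largest differences of the 4 genes. Its signal was 4.14, 4.40 and 4.42 with OTX015, 4.44, 4.74 and 4.66 with DW71177, 8.35, 8.18 and 8.17 with DW71374 and 6.11, 6.19 and 5.96 with RVX208, against 8.20, 8.29 and 8.31 in DMSO. Every OTX015, DW71177 and RVX208 array lay below every DMSO array, and the DW71374 arrays overlapped with DMSO. The group mean was 3.94 ± 0.097 lower with OTX015 than in DMSO (standard error of the fit, n = 3 and 3), a 15.4-fold difference, and 3.65 ± 0.097 lower with DW71177, or 12.5-fold. With RVX208 it was 2.18 ± 0.097 lower, or 4.52-fold. The means with OTX015 (4.32) and DW71177 (4.62) were under 5, so these folds are at best lower bounds. CCR2 stood 2nd from the bottom among the differences of all 14812 genes with OTX015 and with DW71177, and 1st with RVX208.

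GPR183, the hydroxycholesterol receptor, followed CCR2 in size. Its signal was 5.06, 5.06 and 5.26 with OTX015, 4.95, 5.44 and 5.32 with DW71177, 8.18, 8.26 and 8.25 with DW71374 and 7.28, 7.13 and 7.11 with RVX208, against 8.14, 8.14 and 8.29 in DMSO. The OTX015 and DW71177 arrays overlapped with each other and lay below the DW71374 and DMSO arrays, the RVX208 arrays lay below DMSO, and the DW71374 arrays overlapped with DMSO. Relative to DMSO the mean was 3.07 ± 0.108 lower with OTX015 (8.37-fold), 2.95 ± 0.108 lower with DW71177 (7.75-fold) and 1.02 ± 0.108 lower with RVX208 (2.02-fold). The spread among the DW71177 arrays was the widest for this gene (SD 0.26, n = 3), because replicate 1 lay at 4.95. Without that array the difference from DMSO was -2.81.

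CCR1, the receptor for CCL3 and CCL5, was lower by a smaller amount and with the tightest replicates. Its signal was 6.07, 6.07 and 6.19 with OTX015, 6.49, 6.46 and 6.55 with DW71177, 7.92, 7.83 and 7.78 with DW71374 and 7.32, 7.33 and 7.40 with RVX208, against 7.86, 7.92 and 7.85 in DMSO. Here every OTX015 array lay below every DW71177 array, the OTX015, DW71177 and RVX208 arrays each lay below DMSO without overlap, and DW71374 and DMSO overlapped. The difference from DMSO was -1.76 ± 0.059 with OTX015 (3.4-fold), -1.37 ± 0.059 with DW71177 (2.59-fold) and -0.52 ± 0.059 with RVX208 (1.44-fold). All 5 group means were over 5.

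GPR84, the fatty acid receptor, went the other way and was dim throughout. Its signal was 4.75, 4.37 and 4.81 with OTX015, 3.89, 4.14 and 3.86 with DW71177, 3.95, 3.64 and 3.36 with DW71374 and 3.55, 3.87 and 3.51 with RVX208, against 3.50, 3.72 and 3.58 in DMSO. The OTX015 arrays stood above those of DW71177, DW71374 and DMSO, the DW71177 arrays stood above DMSO but overlapped with DW71374, and the RVX208 arrays overlapped with DMSO. The difference from DMSO was 1.04 ± 0.153 with OTX015 (2.06-fold) and 0.36 ± 0.153 with DW71177 (1.29-fold), and 0.04 ± 0.153 with RVX208. The mean was under 5 in all 5 groups, so these folds are at best lower bounds.

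**Figure D1:**
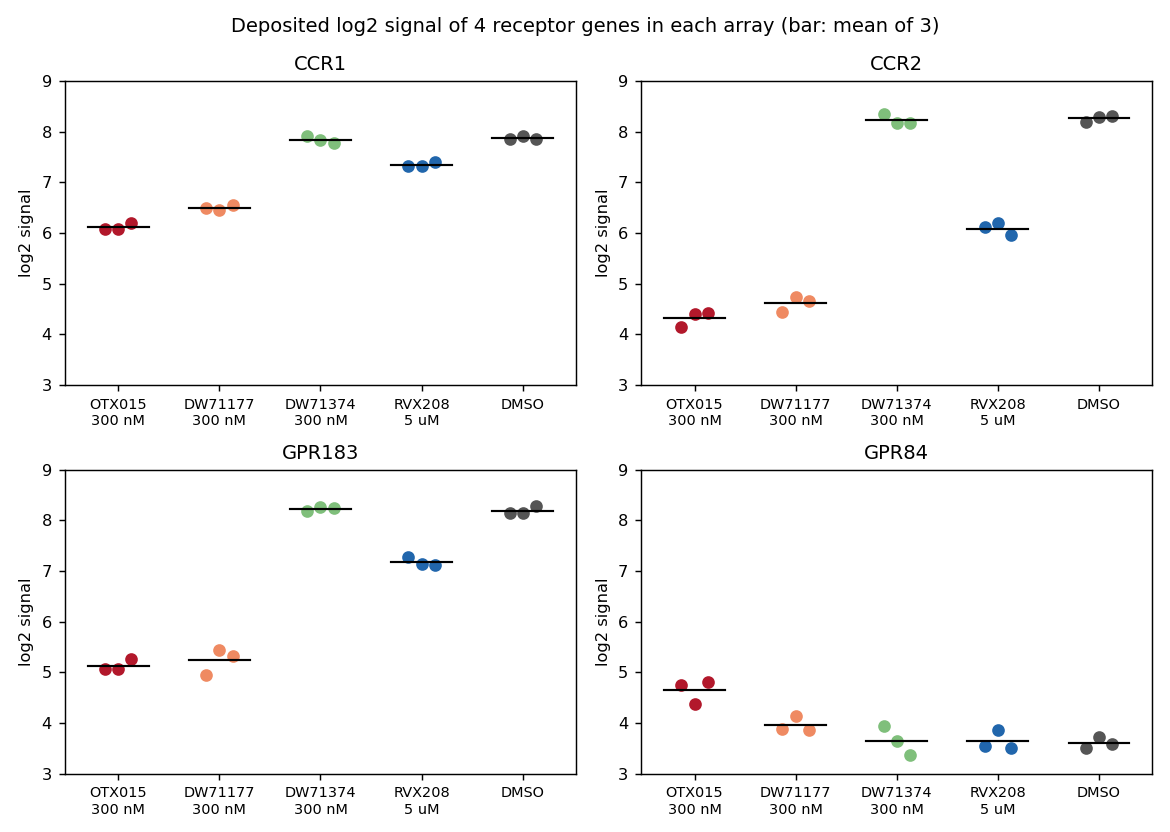
Deposited log2 signal of CCR1, CCR2, GPR183 and GPR84 (vertical axis) in the 3 arrays of each group (points), with a bar at the group mean. For CCR1, CCR2 and GPR183 the OTX015, DW71177 and RVX208 points lie below DMSO and the DW71374 points overlap with it, while for GPR84 the OTX015 points, at 4.37 to 4.81, lie above DMSO.

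Counted over the 4 genes in the limma fit of all 14812 genes, 3 were lower and 1 higher with OTX015 than in DMSO at an adjusted p under 0.05, where 14.5% of all genes were lower and 11.2% higher. With DW71177 3 were lower and 0 higher (background 9.88% and 9.95%), and with RVX208 3 and 0 (3.11% and 3.41%). Since the genes were picked on these contrasts, nothing is read from their counts. By size of the difference the order was CCR2, GPR183 and CCR1 with OTX015, with DW71177 and with RVX208. All of these comparisons share the same 3 DMSO arrays. For CCR1, CCR2 and GPR183 the OTX015, DW71177 and RVX208 arrays all lay below DMSO, as for 19.5%, 16.2% and 13.3% of all genes, and for GPR84 the OTX015 and DW71177 arrays lay above it, as for 16.7% and 16.4%.

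With DW71374 the 4 signals were close to DMSO. The intervals reflect array-to-array spread only, and GPR84 had means under 5, where a difference could go unseen. The difference from DMSO was -0.03 for CCR1 (95% interval -0.16 to 0.10), -0.03 for CCR2 (-0.24 to 0.18), 0.04 for GPR183 (-0.19 to 0.28) and 0.05 for GPR84 (-0.28 to 0.38). Across all genes limma called 0 of 14812 (0%) in this comparison, with 686 at an unadjusted p under 0.05. For the 4 receptors the DW71374 and DMSO arrays overlapped, whereas 4.69% of all genes had every DW71374 array above DMSO and 5.98% every one below.

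OTX015, DW71177 and DW71374 shared the dose of 300 nM, which gave 3 pairs of compounds. OTX015 minus DW71374 was -1.73 for CCR1, -3.91 for CCR2, -3.11 for GPR183 and 0.99 for GPR84. No call is given for the receptors in this pair, in which limma called 14% of all genes lower and 11.1% higher (25.2% in either direction). DW71177 minus DW71374 was -1.34 for CCR1 and -3.62 for CCR2, GPR183 was 7.98-fold lower, and for GPR84 the difference was 0.31 with an interval of -0.01 to 0.64. That GPR84 difference was 0.46 without DW71374 replicate 1 and 0.17 without DW71374 replicate 3. Of all genes 9.51% were called lower and 9.98% higher in this pair (19.5% in either direction).

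**Figure D2:**
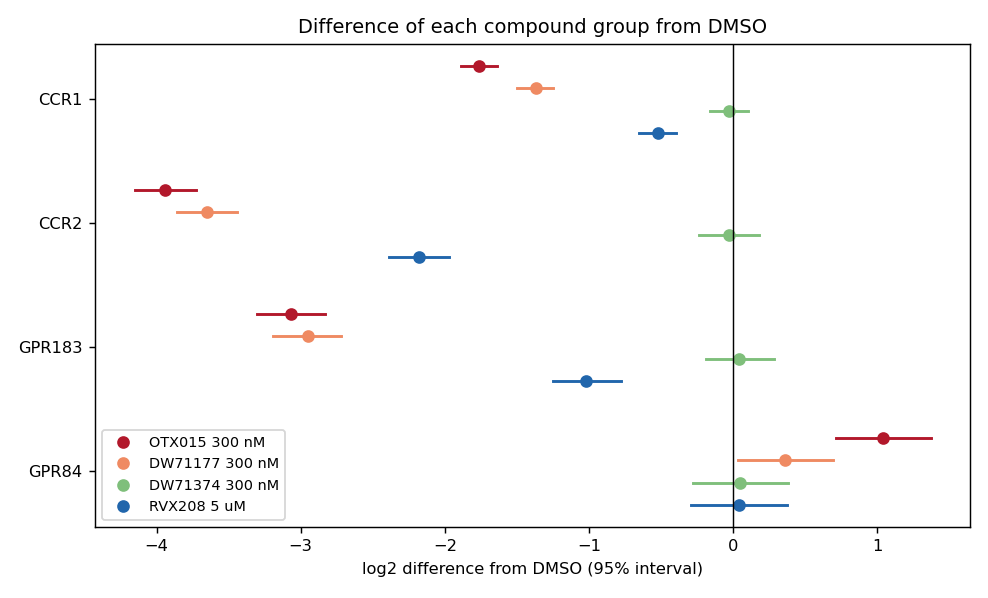
Difference of each compound group from DMSO on the log2 scale (horizontal axis) for the 4 genes, as points with 95% intervals from the limma fit of 15 arrays. CCR2 with OTX015 lies farthest to the left at -3.94, all 4 DW71374 intervals cross 0, and GPR84 with OTX015 lies to the right at 1.04.

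DW71177 and OTX015 were compared directly at 300 nM. GPR183 was 0.11 higher with DW71177 than with OTX015 (95% interval -0.12 to 0.35), and CCR2 was 0.29 higher (0.08 to 0.50). CCR1 was 0.39 higher with DW71177 (0.26 to 0.52), and GPR84 was 0.68 lower (-1.01 to -0.35). Expressed as a share of the OTX015 difference from DMSO, the DW71177 difference was 96.4% for GPR183, 92.6% for CCR2, 77.8% for CCR1 and 34.9% for GPR84. The DW71177 and OTX015 arrays overlapped for GPR183 and did not for the other 3 genes. As the CCR2 means with both compounds were under 5, a difference between them may be compressed there. The GPR84 means were under 5 in every group. Its DW71177 difference from DMSO had a 95% interval of 0.03 to 0.69, so its share is only loosely determined. Over all genes every DW71177 array lay above every OTX015 array for 10.5% and below for 5.02%, and nothing is read from the receptors' count. As background for the lists below, limma called 1.07% of all genes higher and 0.182% lower with DW71177 than with OTX015 (1.26% in either direction).

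The rest of the chemokine receptor family was counted beside CCR1 and CCR2. Of 21 other family members listed, 18 were measured and the others were not analysed here. Measured means, here and below, that the platform annotation named a feature for the gene. Genes without such a name may still be among the unnamed features of the array. Among the 18 only CXCR4 (9.83), CCR6 (5.91) and CXCR3 (5.17) had DMSO means of 5 or more. For the dimmer receptors a fall could go unseen, which limits the counts below. With OTX015 2 of the 18 fell and 0 rose (11.1%, against 25.7% of all genes called), and the list median was -0.05 against -0.00 over all genes. CCR6, a receptor of memory lymphocytes and dendritic cells, fell to 4.55 with OTX015, against 5.91 in DMSO (log2 -1.35 ± 0.098, limma adjusted p = 2.7e-07). CXCR4, which holds hematopoietic cells in the marrow through CXCL12, fell to 9.39 with OTX015, against 9.83 in DMSO (-0.44 ± 0.058, limma adjusted p = 5.4e-05).

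The same pair of receptors fell with the other active compounds. With DW71177, CCR6 fell by 1.37 ± 0.098 (limma adjusted p = 5.3e-07) and CXCR4 by 0.59 ± 0.058 (limma adjusted p = 7.3e-06). With RVX208, CCR6 fell by 0.95 ± 0.098 (limma adjusted p = 9e-05) and CXCR4 by 0.40 ± 0.058 (limma adjusted p = 0.001). These 2 were all that passed of the 18 with RVX208 (11.1%, against 6.52% of all genes). With DW71177 the atypical receptor CCRL2 also rose, by 0.24 ± 0.080 (limma adjusted p = 0.046), which made 3 of 18 (16.7%, against 19.8% of all genes). That CCRL2 call was lost without any one DMSO array and without DW71177 replicate 1 or 3, at values of 0.22 to 0.27, and CCRL2 differed from DMSO by the same 0.24 with DW71374 (limma adjusted p = 0.97). CXCR3, an interferon-chemokine receptor of lymphocytes, differed by -0.46 with OTX015 (limma adjusted p = 0.1) and did not pass, although it did without OTX015 replicate 2 (-0.64, limma adjusted p = 0.026). With DW71177 it differed by -0.46 and did not pass (limma adjusted p = 0.12), although it did without DW71177 replicate 1 (-0.62, limma adjusted p = 0.044). With DW71374 0 of the 18 passed in limma, with 1 at an unadjusted p under 0.05.

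**Figure D3:**
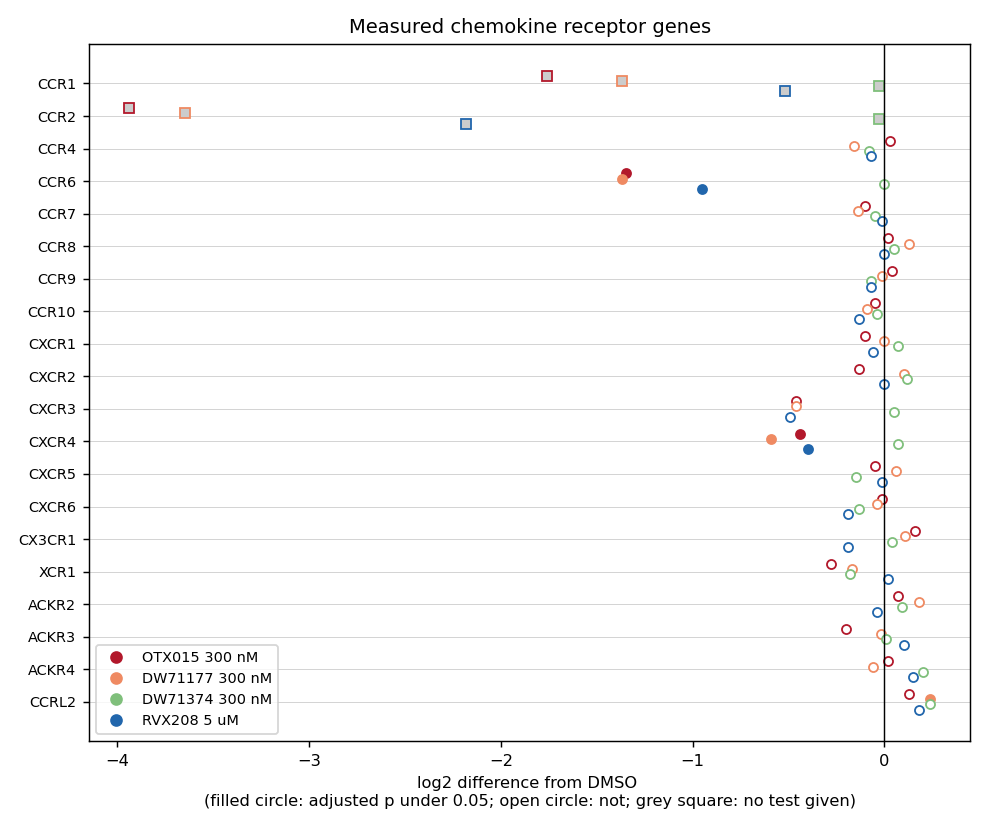
Difference from DMSO on the log2 scale (horizontal axis) of the 20 measured chemokine receptor genes (rows) for the 4 compounds. Filled circles passed an adjusted p under 0.05, open circles did not, and grey squares mark CCR1 and CCR2, for which no test is given; CCR2, CCR1, CCR6 and CXCR4 lie to the left with OTX015, DW71177 and RVX208, and CXCR3 lies to the left with open circles.

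CCR1 and CCR2 lie in a cluster of receptor genes on chromosome 3. In the RefSeq order the 7 measured protein-coding genes from CCR9 to CCRL2 are CCR9, FYCO1, CXCR6, XCR1, CCR1, CCR2 and CCRL2. Their closest measured neighbour on one side, XCR1, differed from DMSO by -0.28 ± 0.178 in the OTX015 arrays, -0.17 ± 0.178 in the DW71177 arrays and 0.02 ± 0.178 in the RVX208 arrays. FYCO1, which moves autophagosomes, differed by -0.10, -0.00 and -0.06, and CXCR6 by -0.01, -0.04 and -0.19. None of CCR9, FYCO1, CXCR6 and XCR1 passed the limma test with these compounds, and all but FYCO1 had means under 5 in every group, where a difference could go unseen. CCRL2, on the side of CCR2, was at 4.80 with DW71177, against 4.56 in DMSO, the unstable call described above. It differed by 0.13 with OTX015 and 0.18 with RVX208 and did not pass.

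**Figure D4:**
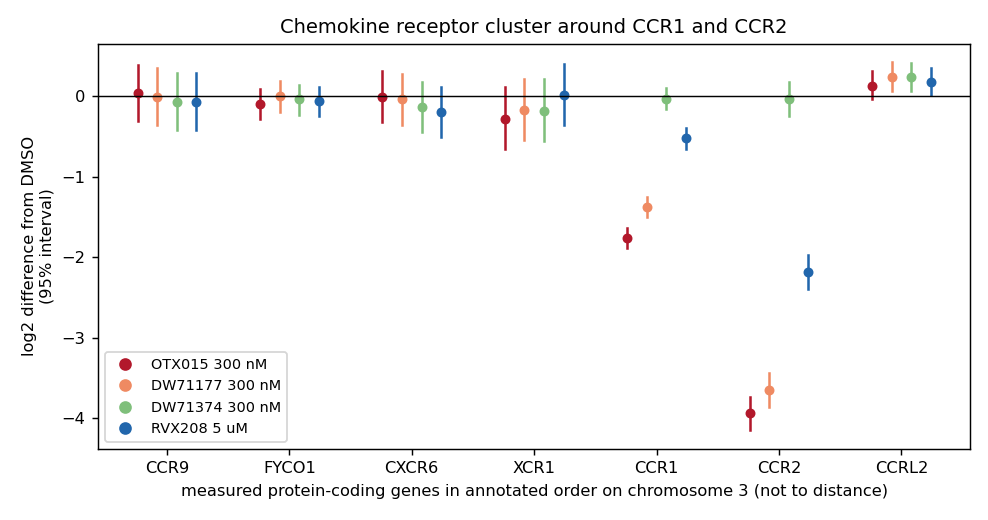
Difference from DMSO on the log2 scale with 95% intervals (vertical axis) for the 7 measured protein-coding genes from CCR9 to CCRL2 in their annotated order on chromosome 3, for the 4 compounds. CCR1 and CCR2 lie below 0 with OTX015, DW71177 and RVX208, and the intervals of CCR9, CXCR6 and XCR1 cross 0. The CCRL2 intervals lie above 0 with DW71177, DW71374 and RVX208.

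Among the chemokines themselves, the ligands of these receptors moved in different directions. Of 42 listed ligands 38 were measured, and with OTX015 1 rose and 4 fell (13.2%, against 25.7% of all genes). CCL5, a ligand of CCR1, rose to 7.30 with OTX015, against 6.14 in DMSO (1.16 ± 0.096, limma adjusted p = 8e-07). CCL23, another CCR1 ligand, was 0.87 ± 0.158 lower (limma adjusted p = 0.0008), and CCL2, the main CCR2 ligand, was 1.03 ± 0.231 lower (limma adjusted p = 0.004). CXCL8, which attracts neutrophils, was 1.38 ± 0.255 lower (limma adjusted p = 0.00091). CCL2, CCL23 and CXCL8 had means under 5 in both groups. The platelet chemokine PF4 was 0.35 ± 0.116 lower (limma adjusted p = 0.043), a call lost without DMSO replicate 2 or 3 or OTX015 replicate 2 or 3, at values of -0.39 to -0.25. The CCR1 ligand CCL3 differed by 0.30 ± 0.105 and did not pass (limma adjusted p = 0.054), and nor did CCL7 at -0.14.

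With DW71177 CCL5 rose by 0.83 ± 0.096 (limma adjusted p = 2.8e-05) and CXCL8 fell by 1.57 ± 0.255 (limma adjusted p = 0.0005). CCL24 was 0.40 ± 0.126 lower (limma adjusted p = 0.036), so that 3 of 38 ligands passed (7.89%, against 19.8% of all genes). The CCL24 call was lost without any one DMSO array or DW71177 replicate 2, at values of -0.45 to -0.29. With RVX208 CCL5 rose by 0.50 ± 0.096 (limma adjusted p = 0.006) as 1 of 38 (2.63%, against 6.52% of all genes), a call lost in a fit of the RVX208 and DMSO arrays alone (limma adjusted p = 0.064). With DW71177 set against OTX015, CCL3 was 0.55 ± 0.105 lower (limma adjusted p = 0.025). That CCL3 call was lost without DW71177 replicate 1 or 2 or any one OTX015 array, at values of -0.57 to -0.51. With DW71374 0 of 38 passed in limma, with 3 at an unadjusted p under 0.05.

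Receptors for other attractants were counted in the same way. Of 35 listed 26 were measured, and with OTX015 1 rose and 4 fell (19.2%, against 25.7% of all genes, list median -0.07). CYSLTR1, a leukotriene receptor, fell by 0.74 ± 0.086 (limma adjusted p = 1.6e-05), and S1PR2, a sphingosine-1-phosphate receptor that restrains migration, by 0.77 ± 0.106 (limma adjusted p = 7.3e-05). GPR35 fell by 0.60 and LPAR1, a lysophosphatidic acid receptor, by 0.42 ± 0.071 (limma adjusted p = 0.0004 and 0.00048). The other, dimmer feature of LPAR1 was 0.26 lower with OTX015 than in DMSO. FPR2, a receptor for formylated peptides, was 0.30 ± 0.101 higher (limma adjusted p = 0.043) at means under 5, and this call was lost when any one of the 6 arrays was left out, at values of 0.25 to 0.34.

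With DW71177 1 of the 26 rose and 3 fell (15.4%, against 19.8% of all genes, list median -0.08). S1PR2 fell by 0.54 ± 0.106, GPR35 by 0.47, and FPR2 rose by 0.52 ± 0.101 (limma adjusted p = 0.0022, 0.0036 and 0.0021). CYSLTR1 was the third that fell, and its call was lost without DMSO replicate 3 or DW71177 replicate 1, at -0.27 in both cases. With RVX208 FPR2 alone passed (3.85%, against 6.52% of all genes), at 0.45 ± 0.101 (limma adjusted p = 0.018), and this call was lost without DMSO replicate 1 or 2 or RVX208 replicate 2 or 3, at 0.37 to 0.46. CYSLTR1 was 0.42 ± 0.086 higher with DW71177 than with OTX015 (limma adjusted p = 0.036), a call lost without DW71177 replicate 2 or 3 or OTX015 replicate 1 or 3, at 0.35 to 0.43. With DW71374 0 of 26 passed in limma, with 1 at an unadjusted p under 0.05.

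Among the relatives of GPR84 no call was made with all arrays. The 9 other receptors for fatty acids and metabolites were all measured. With OTX015, DW71177, DW71374 and RVX208 0 of 9 passed in limma, against 25.7%, 19.8%, 0% and 6.52% of all genes. With each compound 0 had an unadjusted p under 0.05. Most of the 9 had means under 5 in every group, where a difference could go unseen. FFAR3, a receptor for short-chain fatty acids, differed by 0.20 ± 0.182 with OTX015 and HCAR2, the niacin receptor, by -0.28 ± 0.195. The FFAR3 difference was 0.47 without OTX015 replicate 1 and then passed (limma adjusted p = 0.017), and it was 0.02 without OTX015 replicate 2. Of the 6 enzymes that make or remove the hydroxylated cholesterols sensed by GPR183, CH25H was the only one named in the annotation. Nothing can be said here of the others. It was at 1.93 with OTX015 and 1.93 in DMSO, below the array medians.

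Downstream of the receptors, 17 of 44 listed signalling genes were measured, and with OTX015 1 rose and 8 fell (52.9%, against 25.7% of all genes, list median -0.16). LYN, a Src-family kinase of myeloid cells, rose to 9.96 with OTX015, against 9.40 in DMSO (0.57 ± 0.052, limma adjusted p = 2.2e-06), while its relative FGR fell to 5.75, against 6.74 (-0.99 ± 0.117, limma adjusted p = 2.1e-05). ELMO1, which activates Rac together with DOCK proteins, fell by 0.67 ± 0.074, and ADCY7, an adenylate cyclase, by 0.54 ± 0.065 (limma adjusted p = 1.1e-05 and 2.4e-05). NUP85, a nucleoporin that also binds CCR2 as FROUNT, fell by 0.51 ± 0.080 (limma adjusted p = 0.00023). With DW71177 1 rose and 6 fell (41.2%, against 19.8% of all genes), with LYN at 0.48 ± 0.052, FGR at -0.61 ± 0.117 and NUP85 at -0.47 ± 0.080 (limma adjusted p = 1.8e-05, 0.0017 and 0.00075). ADCY7 was among these 6, and its call was lost without DMSO replicate 1 or 2, at -0.23. With RVX208 LYN rose by 0.33 ± 0.052 and FGR fell by 0.63 ± 0.117 (limma adjusted p = 0.0017 and 0.0054), 2 of 17 (11.8%, against 6.52% of all genes). The share of all genes includes dim genes, here and for the adhesion and monocytic lists below. With RVX208 limma called 1558 genes in a fit of those at or above the median level, against 966 over all genes. That share is therefore no matched background for lists holding many brighter genes. With DW71374 0 of 17 passed in limma and 0 had an unadjusted p under 0.05.

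Adhesion and motility genes changed in both directions. Of 35 listed 16 were measured, and with OTX015 5 rose and 4 fell (56.2%, against 25.7% of all genes, list median 0.09). ICAM1, a ligand of leukocyte integrins, rose to 8.06 with OTX015, against 7.16 in DMSO (0.90 ± 0.066, limma adjusted p = 3e-07), and the integrin-associated protein CD47 rose by 0.65 ± 0.099 (limma adjusted p = 0.00018). The integrin adaptor TLN1 rose by 0.33 ± 0.056, while ICAM3 fell by 0.73 ± 0.089 and the actin-binding LSP1 by 0.88 ± 0.118 (limma adjusted p = 0.00051, 2.7e-05 and 5.9e-05). With DW71177 the count was also 5 up and 4 down (56.2%, against 19.8% of all genes), with ICAM1 at 0.56 ± 0.066 and ICAM3 at -0.60 ± 0.089 (limma adjusted p = 3.9e-05 and 0.00024). With RVX208 1 rose and 2 fell (18.8%, against 6.52% of all genes), namely CD47 at 0.36 ± 0.099, the hyaluronan receptor CD44 at -0.41 ± 0.074 and ICAM3 at -0.40 ± 0.089 (limma adjusted p = 0.046, 0.0041 and 0.016). The CD47 call with RVX208 was lost when any one of the 6 arrays was left out (0.33 to 0.40), and the ICAM3 call without DMSO replicate 3 or RVX208 replicate 1 or 2 (-0.36 to -0.35). ICAM1 was 0.34 ± 0.066 lower with DW71177 than with OTX015 (limma adjusted p = 0.027), a call lost without any one DW71177 array or OTX015 replicate 1 or 3, at -0.36 to -0.30. With DW71374 0 of 16 passed in limma, with 3 at an unadjusted p under 0.05.

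Markers of cell identity were read beside the receptors. Of 24 monocytic and leukemia markers 15 were measured, of which 9 had a DMSO mean of 5 or more and 6 were under 5, namely CD14, CD163, MPO, KLF4, VCAN and S100A8. With OTX015 2 rose and 5 fell (46.7%, against 25.7% of all genes), with CSF1R, the receptor for the macrophage growth factor, down by 1.55 ± 0.076, LYZ down by 1.02 ± 0.058 and CD86, a T cell costimulator, up by 1.33 ± 0.077 (limma adjusted p = 7.1e-09, 2.9e-08 and 3.3e-08). With DW71177 2 rose and 4 fell (40%, against 19.8% of all genes), with LYZ at -1.15, CSF1R at -1.06 and CD86 at 1.13. With RVX208 1 rose and 3 fell (26.7%, against 6.52% of all genes), with LYZ at -0.75, CD86 at 0.64 and CSF1R at -0.33, the CSF1R call being lost without DMSO replicate 1 or 3 or RVX208 replicate 1 or 2 (-0.34 to -0.30). The mean log2 signal of the 15 markers was 6.03 to 6.06 with OTX015, 5.98 to 6.00 with DW71177 and 6.09 to 6.11 with RVX208, against 6.14 to 6.19 in DMSO. Their part in the receptor differences was not tested.

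Markers of other cell types were few in the named set. Of 13 lymphoid markers 4 were measured. Of these 2 fell with OTX015, 3 with DW71177 and 2 with RVX208 (50%, 75% and 50%, against 25.7%, 19.8% and 6.52% of all genes). NKG7 of cytotoxic cells was 2.29-fold lower with OTX015, 1.77-fold lower with DW71177 and 1.5-fold lower with RVX208. With OTX015 IL7R fell by 1.63, and it fell by 1.43 in the DW71177 and by 1.36 in the RVX208 arrays. CD2 fell too with DW71177, by 0.29, a call lost without DMSO replicate 1 or DW71177 replicate 2 (-0.24 and -0.23). GNLY, the remaining marker, did not pass with any compound, at 0.03 with OTX015 and -0.11 with RVX208. GNLY, IL7R and CD2 had means under 5 in every group. The mean log2 signal of the 4 lay between 4.31 and 4.58 over the OTX015, DW71177 and RVX208 arrays, against 5.09 to 5.10 in DMSO. Of 10 erythroid and megakaryocytic markers 4 were measured, and PF4 with OTX015, described above, was the single one that passed (25%, against 25.7% of all genes). Of 11 epithelial and stromal markers 5 were measured and 0 passed in limma with any compound against DMSO, with 0 at an unadjusted p under 0.05. With DW71374 0 markers of any list passed. The part of these genes in the receptor differences was not tested.

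Genes whose signal ran most like each receptor were ranked by Pearson's r over the 15 arrays, among genes with at least 1 group mean of 5 or more. The points are arrays of the same 5 groups, so r mainly reflects how genes differ between groups and is given as a description. CCR1 was closest to IGF1, a growth factor gene (r = 0.998), NHP2 (0.995) and TOMM40 (0.995). IGF1 was at 6.09 with OTX015, 6.74 with DW71177, 8.99 with DW71374 and 8.23 with RVX208, against 8.95 in DMSO. CCR2 was closest to ENPP2, which encodes the enzyme that makes lysophosphatidic acid (0.997), MLC1 (0.995) and PSAT1 of serine synthesis (0.994). ENPP2 was at 6.02 with OTX015, 6.21 with DW71177, 8.84 with DW71374 and 7.39 with RVX208, against 8.81 in DMSO. GPR183 was closest to the fatty acid desaturase gene SCD (0.992), the phospholipid enzyme gene LPCAT1 (0.991) and RPF2 of ribosome assembly (0.989). SCD was at 7.71 with OTX015, 7.91 with DW71177, 9.61 with DW71374 and 9.06 with RVX208, against 9.74 in DMSO, and its other, dimmer feature was 1.54 lower with OTX015 than in DMSO. GPR84 was closest to NABP1, a single-stranded DNA binding protein gene (0.933), SCARNA10 (0.932) and PDLIM7 (0.926).

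Among the receptors themselves, CCR1, CCR2 and GPR183 correlated with each other at 0.967 to 0.983 over the 15 arrays, and GPR84 correlated with them at -0.810 to -0.703.

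**Figure D5:**
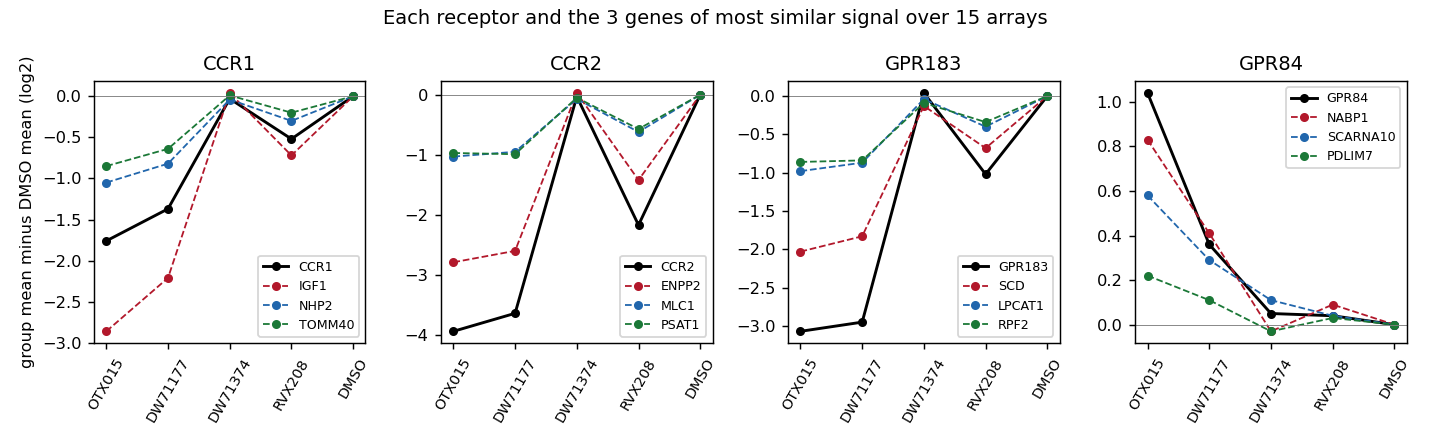
Group means minus the DMSO mean on the log2 scale (vertical axis) for each receptor (solid) and the 3 genes with the highest Pearson's r over the 15 arrays (dashed), with the 5 groups along the horizontal axis. Lines join groups only to guide the eye; the CCR1, CCR2 and GPR183 panels dip with OTX015, DW71177 and RVX208, and in the GPR84 panel OTX015 lies above 0.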

How the data were processed

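Biotin-labelled sense cDNA from 15 MV4-11 samples was hybridised to whole-transcript arrays, per the labels' protocols. The deposited table held signals of 44629 features, taken from their range to be on a log2 scale. Array medians lay within 3.72 to 3.79, so the authors' values were taken as normalized between arrays. The sources used here do not give the method, the software or the genome build. The platform annotation gave 15835 features 1 gene and 0 several, and 28794 were unnamed; all 15835 matched RefSeq by gene ID. The feature of highest mean was kept for 651 genes with several features, which left 14812. Limma 3.58.1 in R 4.3.3 fitted the 5 group means (lmFit and eBayes, no filter, 10 residual degrees of freedom). P-values are two-sided, with Benjamini-Hochberg adjustment over 14812 genes and a threshold of 0.05. The fit was tested on simulated data with independent noise in each array, which cannot show an effect of wells that share a culture. The members and gene lists were chosen with earlier results of these data known. The genes eligible to be named were the 4 receptors, the 3 genes most correlated with each, from every list the 5 or fewer of smallest p for OTX015 against DMSO and the 3 or fewer in each other comparison, all measured chemokine receptors and hydroxycholesterol enzymes, MYC and HEXIM1. FYCO1 and the dim monocytic markers fall outside that rule and were named after their values were seen. List counts leave the 4 receptors out. A replicate block, other filters, normalizations and weights, and leaving out each array were tried as alternatives. Groups and numbers come from the sample titles.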

Additional observations from a re-analysis of the deposited data

How the results depend on the processing

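The differences of CCR1, CCR2, GPR183 and GPR84 were recomputed with a replicate block, quantile normalization, the mean of a gene's features, the arrays of the 2 groups alone and each array left out. None called in the main comparison changed sign. Relative to DMSO they ranged from -3.99 to -3.85 for CCR2 with OTX015, from -3.71 to -3.56 with DW71177 and from -2.23 to -2.12 with RVX208. Those of GPR84 with OTX015 ranged from 0.96 to 1.18. Leaving out one array moved GPR183 by more than its replicate spread in 3 cases, each without DW71177 replicate 1; over the arrays left out its difference ranged from -3.06 to -2.81 against DMSO, from 0.01 to 0.26 against OTX015 and from -3.10 to -2.85 against DW71374. Counts of called genes moved more. With OTX015, limma called 5872 features against DMSO in a fit over all features and 5604 against DW71374. With RVX208 it called 1558 among genes at or above the median level, 1485 with an intensity trend and robust prior, 609 from the 6 arrays alone and 564 to 636 with one array left out, against 966. Between DW71177 and OTX015 it called 107 with the replicate block, 564 among brighter genes, 497 with the trend, 118 with array weights, 79 over all features, 1 from the 6 arrays alone and 71 to 139 with one array left out, against 186. Among the 18 other chemokine receptors, 1 passed in that comparison with the trend, and 4 passed with OTX015 against DW71374 among brighter genes. Deviations of same-numbered arrays from their group means correlated at -0.09 to 0.10 over all genes, with 0 of 30 pairs over 0.1. No strong pairing by replicate number was seen, but a weak one could escape this check. The replicate block turned no called value round. Of 154 calls of named list genes 129 held in every alternative, 25 were lost in at least 1, and 0 reversed; the causes were not tested. Signal near background limits CCR2 with OTX015 and DW71177 and GPR84 in all groups.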
